A study of Mus musculus with 5 samples.

Results

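RNF12 (also called RLIM) and its substrate REX1 were each mapped on the chromatin of mouse embryonic stem cells (mESCs) by ChIP-seq through a V5 tag. The sites described here are REX1 peaks at which wild-type RNF12 (RNF12 WT) also had a peak, while the catalytic mutant RNF12 H569A,C572A had none. They were chosen by these peak calls: each overlapped an RNF12 WT peak by at least 1 bp and overlapped no mutant peak. Of the 95744 REX1 peaks on chromosomes 1 to 19 and X, 8682 (9.07%) met the rule, and these REX1/RNF12 WT sites made up 23.0% of the 37745 REX1 peaks with an RNF12 WT peak. The other REX1 peaks fell into 3 classes: 29063 overlapped peaks of all 3 lists, 9760 overlapped a mutant peak without an RNF12 WT peak (REX1/mutant sites), and 48239 overlapped neither (REX1-only sites).

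Each list came from 1 library of female 129/Sv-Cast/Ei mESCs, so no value below has a replicate and no test between conditions is given. REX1 was mapped in cells labelled WT with FLAG-V5-REX1. The paper credits REX1 occupancy to earlier work and describes the RNF12 libraries as made for its own study. Each RNF12 form was mapped in Rlim+/- cells that carried the tagged wild-type protein or the tagged H569A,C572A mutant, both with FLAG and V5. The RNF12 constructs were driven by the constitutive CAG promoter, and 1 endogenous Rlim allele remained in these cells, so the tagged protein was neither the sole RNF12 present nor under its own promoter. For the RNF12 libraries, cells received 15 μM of the proteasome inhibitor MG132 for 3 h and were cross-linked with 2 mM disuccinimidyl glutarate and 1% formaldehyde. Whether the REX1 cells were treated likewise was not settled here. The 2 control libraries, 1 labelled REX1 input and 1 labelled RNF12 input, were not analysed here. The depth of the libraries is unknown, and peak lists hold no expression values by which to check the cell type. Absence from the mutant list means that no peak passed the authors' threshold there, and weaker mutant signal at these sites could not be examined.

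RNF12 is a RING-type E3 ubiquitin ligase encoded on the X chromosome. The substituted residues lie in its RING domain, which recruits the E2 enzyme. The paper describes this mutant as catalytically inactive, with the fold of the RING domain likely disrupted. REX1, encoded by Zfp42, is a zinc-finger protein of pluripotent cells that arose from the YY1 family and shares much of the DNA sequence preference of YY1. Ubiquitylation by RNF12 sends REX1 to the proteasome. REX1 represses Xist, the non-coding RNA that silences one X chromosome of female cells, so RNF12 acts as a dose-sensitive activator of X inactivation.

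The REX1/RNF12 WT sites that ranked highest in both lists are shown first, because most of them hold ATGGCTG, a string described below for the whole class. Sites were ordered by the sum of the rank of the REX1 peak and the rank of its strongest RNF12 WT peak by fold enrichment, a ratio of ChIP signal at the summit to the control. Each line gives the REX1 summit and 50 bases to either side for 6 of the first 10 sites, read from the mm10 build (GRCm38) and so not the sequence of these hybrid cells, and 3 more are described below without sequence. The name is that of the gene with the nearest transcription start site (TSS). Capitals mark the 7-base string ATGGCTG or its reverse complement CAGCCAT, with the eighth base where it completed a string of the REX1/YY1 family defined below.
Siglec1 site (chr2:131096654-131096754, + strand): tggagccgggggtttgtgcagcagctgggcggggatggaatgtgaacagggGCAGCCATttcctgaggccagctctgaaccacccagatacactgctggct
Wdfy3 site (chr5:101894304-101894404, + strand): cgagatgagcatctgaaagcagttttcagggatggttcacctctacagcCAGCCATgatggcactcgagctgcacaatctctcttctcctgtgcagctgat
Gm9887 site (chr12:69373967-69374067, + strand): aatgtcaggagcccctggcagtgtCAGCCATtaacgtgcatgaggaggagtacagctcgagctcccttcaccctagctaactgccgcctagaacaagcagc
1700110C19Rik site (chr17:10366808-10366908, + strand): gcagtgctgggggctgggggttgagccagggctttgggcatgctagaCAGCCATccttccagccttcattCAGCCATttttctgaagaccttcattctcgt
Gm28387 site (chr1:78008939-78009039, + strand): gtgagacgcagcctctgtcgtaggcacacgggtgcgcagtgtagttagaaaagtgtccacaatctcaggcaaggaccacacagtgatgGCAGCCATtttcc
Kmt5c site (chr7:4741242-4741342, + strand): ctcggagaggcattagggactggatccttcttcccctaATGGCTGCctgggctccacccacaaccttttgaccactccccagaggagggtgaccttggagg

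The Siglec1 site (chr2:131096512-131096825) had a REX1 fold enrichment of 43.3, which placed it at rank 3 of all REX1 peaks, and an RNF12 WT fold enrichment of 11.1. It lay in intergenic DNA 9939 bp upstream of the TSS of Siglec1, a sialic acid-binding receptor of macrophages, and the nearest mutant peak was 23798 bp away. The Wdfy3 site (chr5:101894234-101894580) lay in an intron of Wdfy3, which encodes an adaptor of selective autophagy, with a REX1 fold enrichment of 23.5 and an RNF12 WT fold enrichment of 9.05. At the Gm9887 site (chr12:69373870-69374111), in intergenic DNA 1559 bp upstream of that gene's TSS, the values were 28.5 for REX1 and 8.95 for RNF12 WT. Its nearest mutant peak was 687 bp away.

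At the 1700110C19Rik site (chr17:10366685-10366982), an intergenic site 42256 bp from the nearest TSS, REX1 reached 14.2 and RNF12 WT 10.3. The Gm28387 site (chr1:78008880-78009090) was intergenic too, with 17.2 for REX1 and 8.58 for RNF12 WT, and no mutant peak lay within 180475 bp. The Kmt5c site (chr7:4741150-4741469) lay in an intron, 343 bp upstream of the nearest TSS of Kmt5c, a histone H4 lysine methyltransferase, with 22.3 for REX1 and 8.42 for RNF12 WT. A mutant peak stood 706 bp from it. In all 6 sites shown, the REX1 and RNF12 WT summits were between 16 and 42 bp apart. Of the first 10 sites, 2 lay within 1 kb of a TSS and 8 had no mutant peak within 5 kb.

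Of the 3 sites described without sequence, 1 lay in a UTR of Kcmf1, a ubiquitin ligase gene (chr6:72842179-72842393, REX1 13.3, RNF12 WT 8.95). The other 2 lay on chromosome 18, in introns of genes that have clone names only, with REX1 fold enrichments of 20.2 and 31.0 and RNF12 WT fold enrichments of 11.5 and 9.62. The 7-base string was found within 50 bp of the summit at 8 of the first 10 sites, and a string of the REX1/YY1 family at 6. The 7-base string was picked after these sequences had been seen, so its count here is no support for it. Its share was 10.2% over the class, 33.4% in the highest decile of REX1 fold enrichment and 12.2% at REX1-only sites. These sites were ranked by the values that define a peak, so their strengths are a description of the top of the class.

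Ordered by REX1 alone, the Siglec1 site was followed by a site in an exon of the lincRNA Gm26651 (chr13:51975761-51976392) at 38.2 and by an intronic site of Lrig1 (chr6:94647475-94647896), a negative regulator of growth factor receptors, at 32.8. A site at 4930519F16Rik (chrX:103251053-103252706) reached 31.8 and an intronic site of Ebf3 (chr7:137253534-137254187), a developmental transcription factor, 31.5. Their RNF12 WT fold enrichments were between 4.36 and 6.37. The sites shown above had higher values, as they were ranked in part by RNF12 WT. Ordered by RNF12 WT, an intronic site of She (chr3:89843180-89843538), which encodes an SH2 domain adaptor, stood first at 13.4 with a REX1 fold enrichment of 6.46. Sites at 2010111I01Rik (chr13:63278967-63279106), Ubxn4 (chr1:128243973-128244135) and Gm3756 (chr9:31925909-31926104) had RNF12 WT fold enrichments of 11.6, 11.5 and 11.5 and REX1 fold enrichments of 5.57, 4.09 and 6.40. At the Ubxn4 site the RNF12 WT peak itself overlapped a mutant peak, and the nearest mutant peak lay 14 bp beyond the edge of the REX1 peak.

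Across the class, strength in one list followed strength in the other weakly. Over the 8682 sites, Spearman's rho between REX1 and RNF12 WT fold enrichment was 0.108, against 0.204 over the 29063 sites in all 3 lists. These values are descriptions over peaks of 1 pair of libraries, which share local chromatin and base composition. The median REX1/RNF12 WT site had a REX1 fold enrichment of 4.47 (quartiles 3.78 and 5.57), identical to the median of all REX1 peaks, and an RNF12 WT fold enrichment of 4.70 (3.99 to 5.60). Sites in all 3 lists had medians of 4.75 for REX1, 4.99 for RNF12 WT and 11.6 for the mutant. Over whole lists the median fold enrichment was 4.59 for RNF12 WT and 6.82 for the mutant. The median −log10 q of these 2 lists was 4.62 and 9.57. The median −log10 q of the REX1 peak was 5.35 at REX1/RNF12 WT sites and 7.25 at sites in all 3 lists, and that of the RNF12 WT peak 4.62 and 6.06. The sites made up 9.33% of the 10% of REX1 peaks with the highest −log10 q and 9.42% of the 10% with the lowest, so neither end of the REX1 list was short of them.

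**Figure D1:**
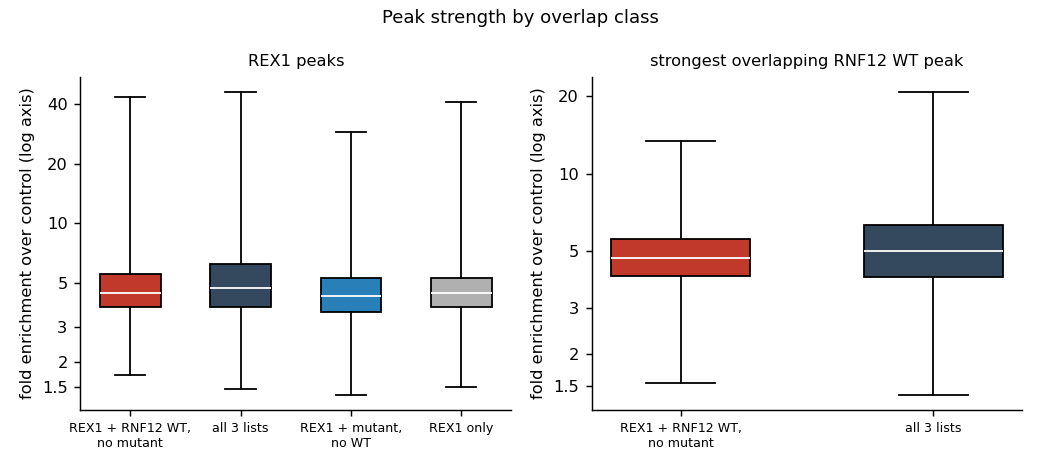
Fold enrichment of REX1 peaks in the 4 overlap classes (left) and of the strongest overlapping RNF12 WT peak in the 2 classes that have one (right), on log axes. Boxes span the quartiles with the median as a white line, and whiskers reach the lowest and highest peak; the REX1/RNF12 WT sites have a median of 4.47 for REX1 and 4.70 for RNF12 WT.

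The median width of REX1/RNF12 WT sites was 168 bp, against 161 bp for all REX1 peaks, 243 bp for sites in all 3 lists, 162 bp for REX1/mutant sites and 138 bp for REX1-only sites. The median overlap with the RNF12 WT peak was 96 bp, and the summits of the 2 peaks were 47 bp apart at the median. At 77.7% of sites (6749) they were at most 100 bp apart. Nearly every site (8482) overlapped exactly 1 RNF12 WT peak, and 200 overlapped more than 1. In all, 8607 different RNF12 WT peaks were the strongest partner of a site.

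The rule has 2 edges, and median fold enrichments differed little across them. A mutant peak lay at most 10 bp from 136 REX1/RNF12 WT sites, whose median fold enrichments were 4.14 for REX1 and 4.69 for RNF12 WT. The 143 sites in all 3 lists that overlapped mutant peaks by at most 10 bp had medians of 3.92 and 4.86. At the other edge, 212 sites overlapped their RNF12 WT peak by at most 10 bp (median REX1 fold enrichment 4.09), and 202 REX1-only sites had an RNF12 WT peak at most 10 bp away (3.95). At 571 sites (6.58%), the strongest RNF12 WT peak itself overlapped a mutant peak that the REX1 peak missed.

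Promoters held a smaller part of the REX1/RNF12 WT sites than of the sites that the mutant also occupied. Of the 8682 REX1 summits, 2687 lay within 1 kb of a TSS, 1391 lay 1 to 3 kb from one, and beyond 3 kb 661 lay in exons, 2110 in introns and 1833 between genes. The promoter share was 30.9% (95% Wilson interval 30.0% to 31.9%), compared with 65.5% at sites in all 3 lists, a difference of −34.5 percentage points (95% Newcombe interval −35.6 to −33.4). It was 36.8% at REX1/mutant sites (−5.90 points, −7.26 to −4.53) and 18.9% at REX1-only sites (12.04 points, 11.01 to 13.08). The share within 1 to 3 kb of a TSS was 16.02% against 7.23% at sites in all 3 lists, and the intronic share was 24.3% against 7.84% (difference 16.5 points, 15.5 to 17.4). All intervals here cover counting error of peaks within these 3 libraries only.

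**Figure D2:**
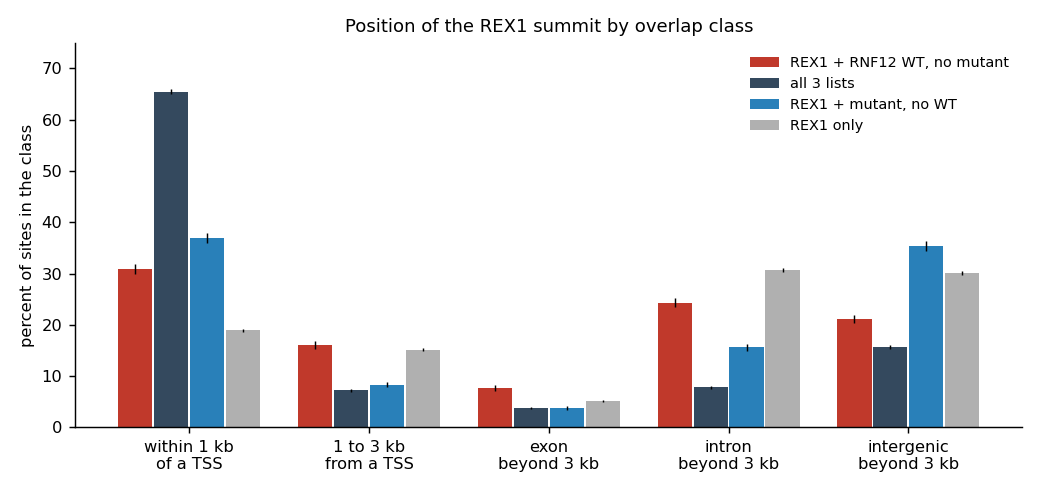
Percent of sites in each overlap class whose REX1 summit lay within 1 kb of a TSS, 1 to 3 kb from a TSS, or beyond 3 kb in an exon, an intron or between genes; bars give the share and error bars the 95% Wilson interval. REX1/RNF12 WT sites (red) had a promoter share of 30.9% and an intronic share of 24.3%, between those of sites in all 3 lists (65.5% and 7.84%) and REX1-only sites (18.9% and 30.7%).

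Peak strength differed between the classes. Promoter shares were also taken within quintiles of strength over the REX1/RNF12 WT sites and the sites in all 3 lists together. Ranked by RNF12 WT −log10 q, the promoter share of REX1/RNF12 WT sites ran from 30.2% in the weakest quintile (2647 sites) to 36.6% in the strongest (568 sites). That of sites in all 3 lists ran from 51.4% to 80.5%. Ranked by REX1 −log10 q, the shares were 32.6% in the weakest and 24.5% in the strongest quintile at REX1/RNF12 WT sites, and 60.6% and 72.3% at sites in all 3 lists. The intervals of the classes, for counting error of peaks only, did not overlap in any quintile of either ranking. Peak width (medians of 168 and 243 bp) was not matched. Whether strength or width accounts for the difference was not tested.

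Among promoter sites, REX1/RNF12 WT summits were spread more widely around the TSS than those in all 3 lists, and less widely than REX1-only summits. Of the 2687 promoter sites, 35.9% (34.1% to 37.7%) lay within 150 bp of the TSS, against 57.5% (56.8% to 58.2%) of the 19023 promoter sites in all 3 lists. This share was 41.0% at REX1/mutant and 25.6% at REX1-only promoter sites. The 50 bp just downstream of the TSS held 9.34% of REX1/RNF12 WT promoter sites and 18.8% of those in all 3 lists. The outer ends of the window held more: 17.9% of REX1/RNF12 WT promoter sites lay 500 to 1000 bp downstream and 9.38% lay 500 to 1000 bp upstream, against 7.72% and 3.33%. Upstream sites made up 40.3% (38.5% to 42.2%) of the promoter sites and 37.0% (36.3% to 37.7%) in all 3 lists.

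**Figure D3:**
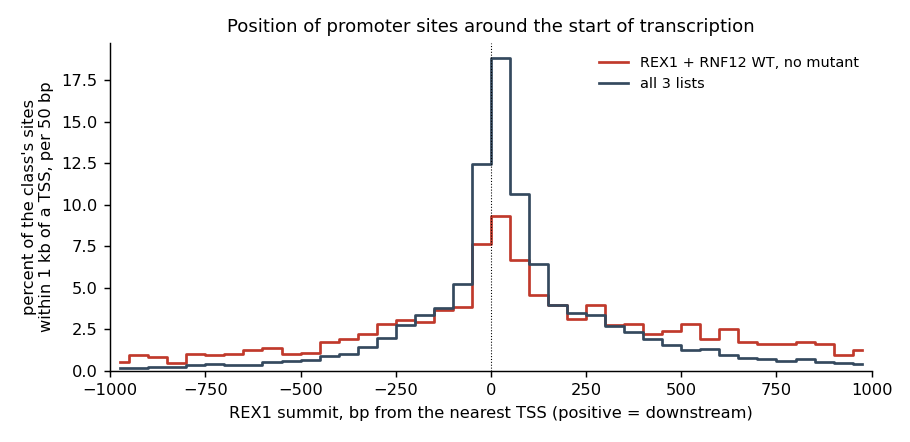
Position of REX1 summits around the nearest TSS for promoter sites, as percent of each class's sites within 1 kb of a TSS in bins of 50 bp. The curve of REX1/RNF12 WT sites (red) is flatter than that of sites in all 3 lists (dark), with 35.9% against 57.5% within 150 bp of the TSS.

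Many of the promoter sites stood beside a mutant peak. Over all REX1/RNF12 WT sites the nearest mutant peak was 3109 bp away at the median (quartiles 455 and 10188 bp), and 2930 sites (33.7%, 32.8% to 34.7%) had one within 1 kb. REX1-only sites had a mutant peak within 1 kb in 22.2% of cases. At promoter sites the median distance was 458 bp, at intronic sites 6244 bp and at intergenic sites 7157 bp. Of the 927 sites with a mutant peak at most 100 bp away, 67.0% (63.9% to 69.9%) were promoter sites. This share was 50.3% (48.1% to 52.5%) beyond that up to 1000 bp and 20.2% (18.5% to 21.9%) up to 5000 bp. It was 17.6% (16.2% to 19.2%) up to 20000 bp and 16.5% (14.4% to 18.8%) among the 1073 sites farther away. Distance from a mutant peak and distance from a TSS thus moved together, and among the 5752 sites with no mutant peak within 1 kb the promoter share was 18.4%.

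**Figure D4:**
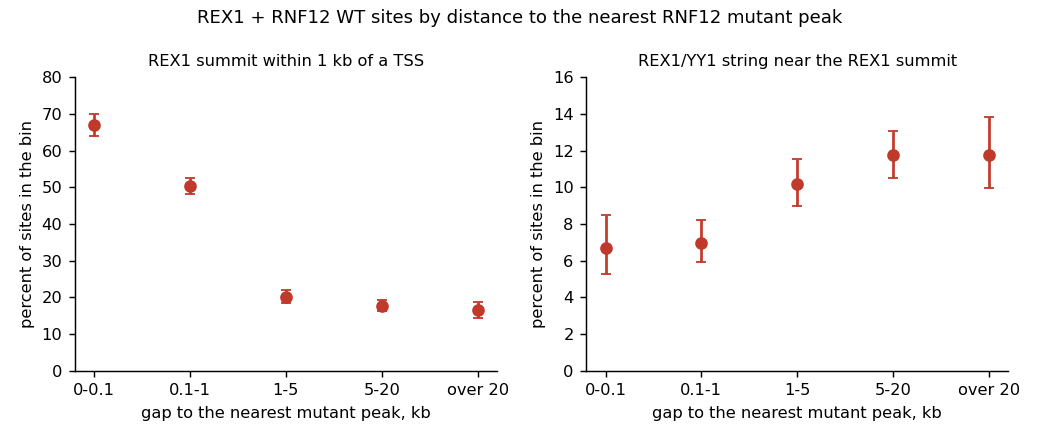
REX1/RNF12 WT sites by the distance from the edge of the REX1 peak to the nearest mutant peak, with the percent within 1 kb of a TSS (left) and the percent with a REX1/YY1 string within 50 bp of the summit (right); points give the share and bars the 95% Wilson interval. The promoter share runs from 67.0% to 16.5% and the string share from 6.69% to 11.7%.

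Sequence composition followed the same division. The summit with 250 bp to either side had a median GC content of 54.7% at REX1/RNF12 WT sites, 62.9% at sites in all 3 lists, 58.5% at REX1/mutant sites and 51.1% at REX1-only sites. The ratio of observed to expected CpG, which is high in CpG islands, had a median of 0.317 against 0.703 at sites in all 3 lists. It exceeded 0.6 at 9.62% of REX1/RNF12 WT sites and at 66.9% of sites in all 3 lists, a difference of −57.3 points (−58.1 to −56.5). The difference was present among promoter sites too, where the median ratio was 0.430 (quartiles 0.296 and 0.580) and 0.792 (0.658 and 0.901). These values are for the DNA around the summit, which lay farther from the TSS in the former class.

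REX1/RNF12 WT sites held the fewest repeat-masked bases of the 4 classes. The genome sequence used marks repeats in lower case (soft-masking). At least 1 such base lay within 50 bp of the summit at 28.1% (27.2% to 29.1%) of REX1/RNF12 WT sites, 30.9% of sites in all 3 lists, 40.3% of REX1-only sites and 55.6% of REX1/mutant sites. Windows that were soft-masked throughout numbered 45 (0.518%, 0.388% to 0.693%) at REX1/RNF12 WT sites, against 14.6% at sites in all 3 lists and 38.4% at REX1/mutant sites. The difference from REX1/mutant sites was −37.9 points (−38.9 to −36.9). How well reads could be placed in these repeats was not tested.

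Strings were then searched on both strands, in the window of 50 bp to either side of the REX1 summit and in flanking windows of equal length 250 to 350 bp from it. The REX1/YY1 family comprised the 6 strings ATGGCGAC, ATGGCGCC, ATGGCGGC, ATGGCTAC, ATGGCTCC and ATGGCTGC. The YY1 core was AAGATGGC, which shares its last 5 bases with the start of the family strings. A match describes the letters in the window and does not show binding. Of all 95744 REX1 peaks, 12.8% held a REX1/YY1 string and 5.65% the YY1 core.

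At REX1/RNF12 WT sites a REX1/YY1 string was found in 843 windows (9.71%, 9.10% to 10.4%), compared with 2.02% of their flanks. The share was 16.4% at sites in all 3 lists (difference −6.67 points, −7.41 to −5.90) and 17.6% at REX1/mutant sites. At REX1-only sites it was 10.3%, and the interval of the difference included 0 (−0.587 points, −1.25 to 0.108). The YY1 core was rare, at 1.67% of REX1/RNF12 WT sites against 9.26% at sites in all 3 lists and 14.3% at REX1/mutant sites (differences −7.59 points, −8.01 to −7.15, and −12.7 points, −13.4 to −11.9). Where the REX1/YY1 string was present, it stood within 25 bp of the REX1 summit at 71.9% of REX1/RNF12 WT sites and 70.7% of sites in all 3 lists.

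The difference from sites in all 3 lists lay mainly in repeats. Beyond 1 kb from a TSS and in windows with a soft-masked base, 38.8% of sites in all 3 lists held a REX1/YY1 string and 34.4% the YY1 core, against 10.8% and 2.48% of the 1812 REX1/RNF12 WT sites there. Beyond 1 kb in windows with no soft-masked base, the order was the opposite. There the REX1/YY1 string was found at 10.3% of the 4183 REX1/RNF12 WT sites and 8.77% of the 4346 sites in all 3 lists (1.54 points, 0.290 to 2.79). Within 1 kb of a TSS the shares were 8.04% and 11.4% (−3.37 points, −4.45 to −2.20). In those windows with no soft-masked base they were 8.51% and 11.3% (−2.79 points, −4.03 to −1.42), so near a TSS the difference was not confined to repeats.

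**Figure D5:**
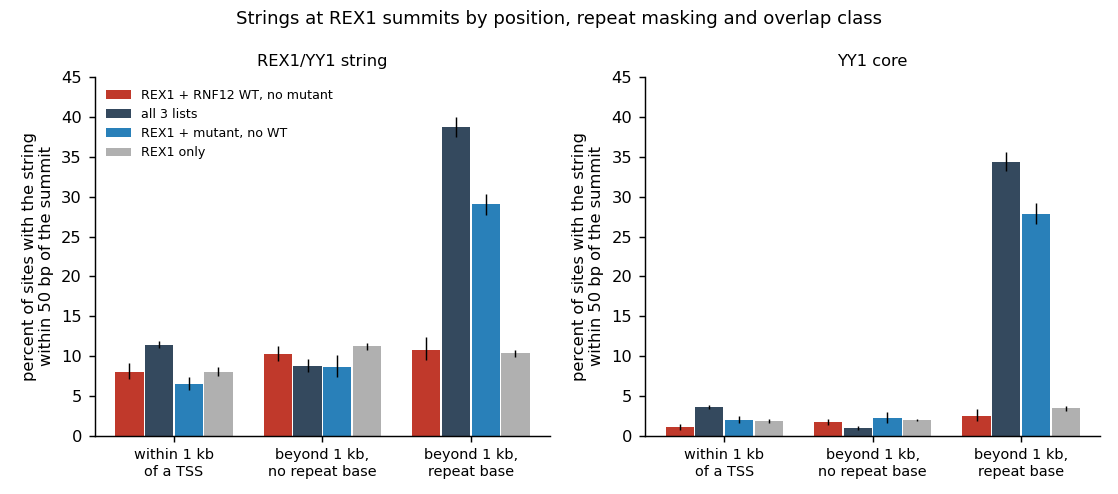
Percent of sites with a REX1/YY1 string (left) or the YY1 core (right) within 50 bp of the REX1 summit, split by distance to a TSS and by whether the window held a soft-masked (repeat) base, for the 4 overlap classes; error bars are 95% Wilson intervals. Beyond 1 kb with a repeat base, the share for the REX1/YY1 string is 10.8% at REX1/RNF12 WT sites (red) and 38.8% at sites in all 3 lists (dark), whereas without a repeat base it is 10.3% and 8.77%.

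The family strings differed between the classes. ATGGCTGC was found at 448 REX1/RNF12 WT sites (5.16%, 4.71% to 5.65%), 2.52% of sites in all 3 lists, 1.71% of REX1/mutant sites and 5.74% of REX1-only sites. ATGGCGAC was found at 31 REX1/RNF12 WT sites (0.357%, 0.252% to 0.506%), 6.81% of sites in all 3 lists and 11.7% of REX1/mutant sites. The latter string lay largely in repeats, at 20.1% of the sites in all 3 lists with a soft-masked base and 0.345% of those beyond 1 kb without one. Among all 8-base words found in at least 1% of REX1/RNF12 WT windows, those with the greatest excess over the flanks relative to counting error were ATGGCTGC, GGCAGCCA, at 4.79% against 1.01% in flanks, and AATGGCTG, at 3.398% against 0.541%. At sites in all 3 lists they were AAGATGGC, CAGCAGCA and AGCAGCAG. Beyond 1 kb from a TSS and without a soft-masked base, ATGGCTGC came first at sites in all 3 lists (4.33%) and at REX1/mutant sites (4.99%) as it did at REX1/RNF12 WT sites (6.05%), so this leading word was not particular to the class.

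The 7-base string ATGGCTG, which the first and the last of these words contain, was searched after the sequences above had been seen. It was found at 889 REX1/RNF12 WT sites (10.2%, 9.62% to 10.9%) against 2.41% of their flanks, and 42 sites held more than 1 copy. Sites in all 3 lists held it in 5.05% of windows (difference 5.19 points, 4.52 to 5.89), REX1/mutant sites in 3.84% (6.40 points, 5.66 to 7.15) and REX1-only sites in 12.2% (−1.94 points, −2.62 to −1.22). Within the class its share was highest at the strongest REX1 peaks. Over the 7 lowest deciles of REX1/RNF12 WT sites by REX1 fold enrichment it was between 4.15% and 7.03%, and in the 3 highest it was 11.6%, 16.5% and, at fold enrichments of 7.40 to 43.3, 33.4% (30.3% to 36.6%). In the flanks of those highest sites it was 2.24%. The promoter share was 38.6% in the lowest decile and 22.7% in the highest. Deciles for ATGGCTG were not computed in the other classes. The REX1/YY1 string rose from 4.21% in the weakest to 30.0% in the strongest quintile by REX1 −log10 q at REX1/RNF12 WT sites. At sites in all 3 lists it rose from 7.76% to 31.5%, so the rise of that string was not particular to the class.

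The REX1/YY1 string was more frequent around REX1 summits than around RNF12 WT summits. Centred on the RNF12 WT summit, the window held a REX1/YY1 string at 6.07% (5.59% to 6.59%) of the same 8682 sites. At sites in all 3 lists the share was 16.4% around REX1 summits and 7.59% around RNF12 WT summits, so the drop was not particular to the class. Of the 843 sites with the string near the REX1 summit, 49.5% (46.1% to 52.8%) also had it within 50 bp of the RNF12 WT summit. With increasing distance from a mutant peak its share around the REX1 summit was 6.69% (5.25% to 8.48%) within 100 bp, 6.99% to 1000 bp, 10.2% to 5000 bp, 11.7% to 20000 bp and 11.7% (9.95% to 13.8%) beyond.

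Other strings were searched for comparison. The GC box GGGCGG, which SP and KLF factors bind, was found at 9.66% of REX1/RNF12 WT sites and 26.9% of sites in all 3 lists (−17.2 points, −18.0 to −16.4), with 5.81% and 16.5% in their flanks. The ETS string CCGGAAG was found at 1.92% and 5.47%, and the CAG repeat string GCAGCAGC at 3.24% and 10.9%. Without a soft-masked base, the CAG string was found at 2.85% and 3.79% (−0.934 points, −1.41 to −0.423). Beyond 1 kb from a TSS without a soft-masked base, the ETS string was found at 1.77% and 1.89%, and the interval of the difference included 0 (−0.692 to 0.458 points). KLF core strings (GGGTGTGGC and GGGCGTGGC) were found at 1.81% and 1.38% (0.432 points, 0.137 to 0.760), and without a soft-masked base the interval of the difference included 0 (−0.118 to 0.585 points). None of the REX1/YY1, YY1 core, CAG, GC box and ETS strings was present at 6642 sites (76.5%), compared with 55.6% of sites in all 3 lists and 80.9% of REX1-only sites.

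The sites were unevenly spread over the chromosomes. On chromosome 11, 11.6% (10.9% to 12.4%) of REX1 peaks were REX1/RNF12 WT sites and on chromosome 15, 11.5% (10.5% to 12.5%). The share was lowest on chromosome 12, at 3.63% (3.18% to 4.14%), and on chromosome 10, at 5.23% (4.62% to 5.91%), and it was 7.78% (6.90% to 8.77%) on the X chromosome. The RNF12 WT list was itself thin on chromosomes 12 and 10, with 2289 and 3070 peaks against 5892 and 4554 REX1 peaks. The mutant list held 4303 and 4672 peaks on these chromosomes, and 44.2% and 35.3% of the REX1 peaks with a mutant peak there lacked an RNF12 WT peak. Without both chromosomes there were 8230 sites, with a promoter share of 31.3%.

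Within 1 kb of a TSS, 2171 of 21755 protein-coding genes (9.98%) had a REX1/RNF12 WT site, and 12208 (56.1%) had a site in all 3 lists. Most genes with a REX1/RNF12 WT site also had one in all 3 lists, and 679 did not. A REX1 peak of any class lay within 1 kb of a TSS of 14678 genes, and 14.8% of these had a REX1/RNF12 WT site. Gene groups are given below by their counts against these shares, with Wilson intervals for the share of all genes of the group, and the groups were not tested against one another.

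Of 394 zinc-finger genes with Zfp symbols, which include many KRAB-domain repressors, 52 had a site (13.2%, 10.2% to 16.9%), and 29 of these had no site in all 3 lists, against 679 of 2171 over all protein-coding genes. Sites in all 3 lists were present at 65.5% of Zfp genes. Of the 345 Zfp genes with a REX1 peak 15.1% had one, close to the 14.8% of all genes with a REX1 peak. The strongest were at Zfp532 (REX1 19.05, RNF12 WT 5.53), Zfp62 (13.3 and 6.33), Zfp605 (12.5 and 4.96) and Zfp977 (10.999 and 3.46). Of 32 Polycomb genes, whose products maintain gene silencing through histone marks, 7 had a site (21.9%, 11.02% to 38.8%), or 22.6% of the 31 with a REX1 peak. The interval lay above the 9.98% of all genes but included the 14.8% of genes with a REX1 peak. L3mbtl2, a subunit of a non-canonical PRC1 complex, had a REX1 fold enrichment of 16.9 and an RNF12 WT fold enrichment of 3.71 at a site −5 bp from its TSS and no site in all 3 lists. Cbx7, a reader of methylated histone H3, had 6.52 and 5.07, with a mutant peak 9 bp away. Phc3 and Kdm2b, with 5.81 and 4.96 for REX1, had sites in all 3 lists as well. Mutant peaks lay 14101 bp from the site at L3mbtl2, 56 bp from that at Phc3 and 3759 bp from that at Kdm2b.

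Of 17 genes of DNA methylation and demethylation, 4 had a site (23.5%, 9.56% to 47.3%), among them Mbd4, a thymine glycosylase of methylated CpG (REX1 6.08, RNF12 WT 5.48), Mbd2 (5.09 and 3.61) and Dnmt3l, the cofactor of de novo methyltransferases (4.11 and 4.00). Mutant peaks lay 26 bp from the site at Mbd4, 209 bp from that at Mbd2 and 13 bp from that at Dnmt3l. All 17 genes had a REX1 peak, and the interval included both background shares.

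Housekeeping groups, most of whose promoters had a site in all 3 lists, had shares of all genes between 0% and 12.2%, on both sides of the 9.98% background. Among their genes with a REX1 peak the shares were between 0% and 12.8%, beside 14.8% over all such genes, and these differences were not tested. Of 98 genes of splicing factors, 12 had a REX1/RNF12 WT site (12.2%, 7.15% to 20.2%), the strongest at Sf3b3 (REX1 6.30, RNF12 WT 2.80), Snrpn (5.57 and 4.05), Dhx8 (5.04 and 3.01) and Srsf3 (4.61 and 4.59). Heat-shock proteins and chaperonin subunits had 10 of 90 (11.1%, 6.15% to 19.3%) and RNA polymerase II and Mediator 5 of 46 (10.9%, 4.73% to 23.04%). Proteasome subunits had 4 of 39 (10.3%, 4.06% to 23.6%), led by Psmd5 at 7.14 and 8.10. Ubiquitin E2 enzymes, the class that RNF12 works with, also had 4 of 39: Ube2d2b, Ube2s, Ube2v1 and Cdc34, with REX1 fold enrichments between 4.01 and 4.83.

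Cytosolic ribosomal proteins had 7 of 86 (8.14%, 3.999% to 15.9%), led by Rpl7l1 (REX1 11.1, RNF12 WT 5.54) and Rpl39 (5.59 and 4.51). Respiratory chain subunits had 6 of 88 (6.82%, 3.16% to 14.1%), led by Ndufb5 (8.5995 and 5.33) and Ndufa11 (6.51 and 5.58). Mitochondrial ribosomal proteins had 5 of 78 (6.41%, 2.77% to 14.1%), and all 5 of these promoters lacked a site in all 3 lists, which 70 of the 78 genes had. Over all protein-coding genes 679 of 2171 lacked one. They were Mrpl51 (REX1 15.5, RNF12 WT 4.49), Mrpl35 (14.7 and 6.12), Mrps31 (8.22 and 5.48), Mrpl34 (5.72 and 6.17) and Mrpl11 (3.45 and 3.99). The sites at Mrpl51 and Mrpl35 lay 0 bp from the TSS and held a REX1/YY1 string. Mutant peaks lay 69 bp from the site at Mrpl51 and 57 bp from that at Mrpl34, and at least 4080 bp from the other 3. Translation factors had 4 of 66 (6.06%, 2.38% to 14.6%), aminoacyl-tRNA synthetases 2 of 37 (5.41%, 1.495% to 17.7%) and replication-dependent histones 3 of 67 (4.48%, 1.53% to 12.4%). No site was found at the 38 genes of respiratory chain assembly factors (0%, up to 9.18%) or the 37 genes of TFIID and general transcription factors (0%, up to 9.41%), of which 36 and 35 had a site in all 3 lists.

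Of 20 genes of naive pluripotency, 3 had a site (15%, 5.24% to 36.04%): Pou5f1, which encodes OCT4, Lin28a, an RNA-binding protein (REX1 5.91, RNF12 WT 4.99), and Stat3, which carries the LIF signal (4.73 and 4.11). Of 10 neural genes of the RNF12-REX1 axis, 2 had one (20%, 5.67% to 50.98%), Pax6 (3.91 and 3.36) and Ntn1 (3.63 and 5.33), in both cases beside a mutant peak 87 and 24 bp away. Of 15 partners and reported substrates of RNF12, 2 had one (13.3%, 3.74% to 37.9%), Lhx3 and Dvl2. Of 14 gametogenesis genes 1 had one (7.14%, 1.27% to 31.5%), Usp26 (5.57 and 7.68), whose site lay 71031 bp from a mutant peak.

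Pou5f1 had several sites. Within 5 kb of the gene lay 12 REX1 peaks, of which 5 were REX1/RNF12 WT sites, 1 was in all 3 lists and 6 were REX1-only, and 4 of the 5 lay within 1 kb of a TSS. The strongest of these 4 (chr17:35509336-35509670) lay in an intron 722 bp downstream of an annotated internal TSS, with 19.7 for REX1, 6.04 for RNF12 WT and a mutant peak 3135 bp away. A second intronic site (chr17:35506447-35506728), 555 bp from the first exon's TSS, had 9.45 for REX1 and 2.96 for RNF12 WT. Another lay 897 bp upstream of the gene (chr17:35504902-35505196) with 5.34 and 5.68, and 1 in coding sequence (chr17:35506239-35506357) with 2.84 and 4.78, at 38 bp from a mutant peak. The windows of the 2 intronic sites are shown because one holds the REX1/YY1 string and the stronger one does not. They were chosen after their values were seen.
Pou5f1 site at 555 bp (chr17:35506523-35506623, + strand): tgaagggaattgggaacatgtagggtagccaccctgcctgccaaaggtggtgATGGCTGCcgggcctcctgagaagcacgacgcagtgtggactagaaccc
Pou5f1 site at 722 bp (chr17:35509493-35509593, + strand): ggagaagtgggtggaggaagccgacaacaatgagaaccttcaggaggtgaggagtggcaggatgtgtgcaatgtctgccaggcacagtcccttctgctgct

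In the first of these, the string lay 6 bp from the REX1 summit, which was 167 bp from the RNF12 WT summit. The second held neither the family strings nor ATGGCTG, although its REX1 fold enrichment was more than that of the other 3 sites within 1 kb of a TSS. Of 2834 genes of any type with a REX1/RNF12 WT site within 1 kb of a TSS, 297 had at least 2 and 29 at least 3. Rarg, a retinoic acid receptor gene with 7 annotated TSSs, had the most, with 5 sites of REX1 fold enrichment 3.57 to 3.77, and 7 of the 16 REX1 peaks within 5 kb of it were REX1/RNF12 WT sites. Csrnp1, like Pou5f1, had 4, all with fold enrichments of at most 4.45. Amotl2, a regulator of YAP signalling, Nr1h3, a nuclear receptor of sterols, and Ndrg4 had 3 each, with highest REX1 fold enrichments of 15.1, 13.0 and 11.5. Genes with more annotated TSSs offer more windows, and the counts were not corrected for that.

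At the X inactivation centre, 1 site lay at the start of Xist. The peak (chrX:103483170-103483284) had its summit in the first exon, 34 bp downstream of the Xist TSS, within Tsix, the antisense gene that opposes Xist. Its REX1 fold enrichment was 5.39 (−log10 q 7.90), and its RNF12 WT fold enrichment 7.01 (−log10 q 7.97), with the summits 25 bp apart. The nearest mutant peak lay 1047 bp away. Across Xist and 5 kb to either side there were 7 REX1 peaks, 1 of this class, 1 in all 3 lists and 5 REX1-only, and the others had fold enrichments of 2.21 to 19.8. Its sequence is given because it lies at the TSS of the gene that REX1 represses, and was likewise chosen after its values were seen.
Xist site (chrX:103483170-103483270, + strand): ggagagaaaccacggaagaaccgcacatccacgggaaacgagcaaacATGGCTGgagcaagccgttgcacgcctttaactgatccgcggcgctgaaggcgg

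The 7-base string ATGGCTG, in capitals, overlapped the REX1 summit, and no string of the REX1/YY1 family was present. A stronger site lay within 5 kb of the 3′ end of Rlim, the gene of RNF12 (chrX:103953044-103953335), with 25.6 for REX1, 6.001 for RNF12 WT and no mutant peak within 27335 bp. At Zfp42, the gene of REX1, a site in an intron (chr8:43305621-43305973), 1055 bp downstream of a TSS, had 11.7 for REX1 and 5.58 for RNF12 WT, and the mutant peak nearest to it was 1058 bp away. It was 1 of 2 REX1 peaks at the gene, and the other overlapped a mutant peak only. Both sequences hold, in capitals, the string ATGGCGGC or its reverse complement, the Rlim site also holds CAGCCAT, and they are shown, again chosen with their values known, because REX1 and RNF12 are the proteins mapped here.
Rlim site (chrX:103953183-103953283, + strand): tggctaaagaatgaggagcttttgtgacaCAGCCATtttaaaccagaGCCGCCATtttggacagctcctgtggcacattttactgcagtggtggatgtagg
Zfp42 site (chr8:43305831-43305931, + strand): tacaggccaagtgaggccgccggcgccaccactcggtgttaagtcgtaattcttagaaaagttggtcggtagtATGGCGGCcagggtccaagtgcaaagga

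The string of the Rlim site lay 1 bp from the REX1 summit and that of the Zfp42 site 27 bp from it. Among the genes of the REX1 and YY1 family, Yy2 had a site too. The peak (chrX:157568915-157569148) lay in a UTR of the overlapping gene Mbtps2, −104 bp from a Yy2 TSS. It was the sole REX1 peak within 5 kb of Yy2, with 7.40 for REX1 and 4.71 for RNF12 WT, and the nearest mutant peak was 5388 bp away.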

How the data were processed

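ChIP-seq peak lists of REX1, RNF12 WT and RNF12 H569A,C572A were used, each deposited from 1 library. Per the methods and the submitters' processing notes, the authors trimmed reads (Trim Galore 0.6.7), aligned them with Bowtie2 2.5.0 to mm10 masked at strain differences, merged the alleles (SAMtools 1.10) and called narrow peaks with MACS2 2.2.7.1. The fold enrichment in the deposited lists is the ratio of ChIP to control signal at the summit, as MACS2 writes it for the authors. The deposited −log10 q is the authors' significance of each peak, with a minimum of 1.31 in every list. Depth is unknown, and a peak missing from a list depends on depth and threshold.

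Here, 95744 of 96050 REX1 peaks, 97272 of 97602 RNF12 WT peaks and 96846 of 98124 mutant peaks, on chromosomes 1 to 19 and X, were intersected (at least 1 bp). The strongest overlapping RNF12 WT peak gave the RNF12 values. REX1 summits were placed on GENCODE transcripts, with all TSSs used, and on the GRCm38 RefSeq sequence. Shares carry Wilson and differences Newcombe 95% intervals, for counting error only. Sites named are the first 10 by rank sum, the first 5 by either fold enrichment and those within 5 kb of Xist, Tsix, Zfp42 and Rlim. Genes named are up to 4 per group by REX1 fold enrichment (5 for mitochondrial ribosomal proteins, the fifth named after its values were seen) and those with at least 3 sites; a few items that met these rules are not reported here. The sites, gene groups and strings were chosen with earlier results of these data known. Overlaps, distances and string searches were tested on simulated data. Python 3.11.15, numpy 2.4.6, pandas 2.3.3, scipy 1.17.1 and matplotlib 3.10.9 were used.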

Additional observations from a re-analysis of the deposited data

How the results depend on the processing

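No paired analysis was possible because each list came from 1 library and no test between conditions was made. With a −log10 q of at least 5 in all 3 lists there were 2622 REX1/RNF12 WT sites, of which 33.2% lay within 1 kb of a TSS, 14.0% held a REX1/YY1 string and 28.7% had a mutant peak within 1 kb, and 807 protein-coding genes had a site. With an overlap of at least 50% of both peaks, there were 4469 sites, the promoter share was 29.0%, 30.3% had a mutant peak within 1 kb and 1118 genes had a site. With no mutant peak within 1 kb there were 5752 sites, with a promoter share of 18.4%, a string share of 11.1% and 754 genes. With the summit of any overlapping RNF12 WT peak, not only the strongest, at most 100 bp from the REX1 summit there were 6819 sites. Their promoter share was 29.1% and their share with a mutant peak within 1 kb 30.6%. Where the RNF12 WT peaks overlapped no mutant peak they were 28.4% and 28.9%. The promoter share was 26.2% with TSSs of protein-coding genes only and 33.0% at sites with no soft-masked base. The string share was 6.32% within 25 bp and 12.5% within 100 bp of the summit.

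Under all of the alternatives run, the promoter share stayed below that of sites in all 3 lists (differences of −47.1 to −33.6 percentage points) and so did the share with a REX1/YY1 string (−9.14 to −1.04). The latter was smallest at sites with no soft-masked base (95% interval −1.87 to −0.172). Among those, sites beyond 1 kb from a TSS had the opposite order (1.54 points, 0.290 to 2.79). Each list rests on 1 library of unknown depth, so the spread between replicates is unknown, and a site near a threshold could be called in another library.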

Other observations

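Coding sequence lay under 14.4% of REX1/RNF12 WT summits, compared with 6.70% of REX1-only summits (7.65 percentage points, 95% interval 6.90 to 8.44) and 19.3% of summits in all 3 lists (−4.98 points, −5.83 to −4.10). In promoters, the REX1/YY1 string stood on the strand of the gene at 46.3% (39.8% to 53.0%) of the 216 REX1/RNF12 WT sites that held it, and at 57.3% (55.2% to 59.3%) of the 2171 such sites in all 3 lists. The strand share was 50.4% at REX1/mutant and 49.8% at REX1-only sites. Of the YY1 core matches at REX1/RNF12 WT sites, 42.8% (62 of 145) shared the window with a REX1/YY1 string, against 84.8% at sites in all 3 lists. At REX1/mutant sites this was 87.2% and at REX1-only sites 37.7%, so the low share was not particular to the class.

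The octamer ATGCAAAT, which OCT4 and related factors bind, was found at 0.346% of REX1/RNF12 WT sites and 0.0998% of sites in all 3 lists, but its share in the flanks was 0.432% and 0.308%, above that at the summits in both classes. The NF1 half-site was found at 1.42% and 0.840%, with 1.17% and 0.759% in the flanks.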
